A study of Homo sapiens with 2 samples.

Results

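The features described here are the annotated genes on the short-arm side of the acrocentric chromosomes 13, 14, 15, 21 and 22 that lie around the ribosomal DNA (rDNA) arrays without being 45S units. They were taken as features of the CHM13 v1.1 annotation whose smallest start lies below base 10000000 of these chromosomes, whose span is not that of a whole 45S unit, which do not lie inside such a unit, and whose counts in both libraries sum to 50 or more. There were 81 of them among the 63494 features of the count tables, and they are called members here. The window held 1399 features, of which 219 were 45S units and 657 lay inside a unit. Of the 523 others, 214 had 0 counts in both libraries and 228 had 1 to 49, so that the 81 are the well-counted part of the window and not the whole of it. The members were chosen by the summed counts of both libraries, which are used below as a description only.

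The libraries come from HEK293T, an established line of human embryonic kidney origin in which SV40 large T antigen is expressed. The line carried either SFB-Ku80 (Ku80 fused to SBP and tandem FLAG, called the Ku80 library below) or SFB empty vector (the tags alone, called the vector library). Both were given 0.1 mM of the photoreactive nucleoside 6SG (6-thioguanosine) and irradiated with 0.4 J/cm2 of UV light at 365 nm, which crosslinks proteins to the RNA they touch (PAR-CLIP). Both were then taken over streptavidin resin and over Flag resin, so that the vector library holds what is recovered without a tagged Ku80. The labels call the expression stable, whereas the methods describe a plasmid for transient transfection. There was 1 library per condition. No difference below has a replicate check, and no test or p-value is given. Intervals cover counting error only, and they are too narrow even for that, because a read pair can be counted more than once and no molecular identifiers that would mark PCR copies are stated.

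Ribosomal RNA is transcribed by RNA polymerase I from tandem 45S units, each separated from the next by an intergenic spacer. The arrays of these units form the nucleolus organizer regions on the short arms of the 5 acrocentric chromosomes. The sequence on the telomere side of an array is called distal and that on the centromere side proximal. Parts of these flanks recur on several of the 5 chromosomes, so a short read from one can fit several. Ku80 and Ku70 form the ring-shaped heterodimer that holds DNA ends in non-homologous end joining, and the study asked which RNA that complex holds. In the CHM13 v1.1 annotation the units ran from 5774303 to 9309130 on chromosome 13, from 2103528 to 2780864 on chromosome 14, from 2510166 to 4668554 on chromosome 15, from 3112036 to 5573111 on chromosome 21 and from 4797630 to 5682337 on chromosome 22, all on the plus strand.

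The library totals were 19775629 counts (vector) and 17892815 counts (Ku80). The members took 40056 of the former, or 0.203% (95% exact binomial interval 0.201 to 0.205%), and 38157 of the latter, or 0.213% (0.211 to 0.215%). The ratio of the shares was 1.05 (1.04 to 1.07). A few members decided it. The 5 members of 914 to 950 bases held 52.3% of the members' counts in the vector library and 72.7% in the Ku80 library, while the median member had 77 counts and 41 counts. Without the member with the most counts in each library the ratio of the shares was 0.776, below 1. Only 1696 uniquely mapped read pairs of the vector library and 1604 of the Ku80 library lay on the members, which is 23.6 and 23.8 counts per unique pair against 3.26 and 12.4 over all features. Counts of a member are therefore largely counts of reads that also mapped elsewhere, and copies of a member on several chromosomes are not replicates.

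Most features had a lower count in the Ku80 library. Across all 21499 features with at least 50 counts, the median log2 ratio of SFB-Ku80 to SFB empty vector, with a pseudocount of 1, was -1.28. This median was set to 0, and every log2 ratio below is given relative to it. A feature is called higher or lower in the Ku80 library when it lies at least 1 (2-fold) above or below that median. The members as a whole lay near it. Their median was 0.03, 28 of them (34.6%) were higher against 26.1% of all features, and 24 (29.6%) were lower against 26.3%. With all counts as the scale, under which the median of all features is -1.14, the split was 15 higher and 42 lower. With the counts outside the 45S units, under which that median is -0.88, it was 17 and 37. The shares of 26.1% and 26.3% do not hold under these scales, and no such share is given for them. These 2 splits are therefore not read as a trait of the members.

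The ratio differed by position, and also by exon number and length. The 19 members up to 45 kb past the last unit of an array had a median log2 ratio of 3.64, from 0.90 to 4.83, and 18 of the 19 were higher (14 to 18 over the scalings tried). The 29 members farther on the proximal side had a median of -0.17, with 7 higher and 11 lower. The 32 distal members had a median of -0.92, with 3 higher and 13 lower. The 192 of the 219 45S units with at least 50 counts, which lie between them, had a median of 3.94 and ranged from 2.29 to 4.31, while 22 units had 0 counts in both libraries and 5 had 1 to 49. The 2590 features of the same chromosomes beyond the window with at least 50 counts had a median of 0.10. The limit of 45 kb was chosen after these values had been seen, and without the 19 members the number of higher members was 10 of 62, with a median of -0.36 over the 62. The limit of 50 counts applied to the sum, so a member with fewer than 50 in either library passed only with the counts of the other.

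**Figure D1:**
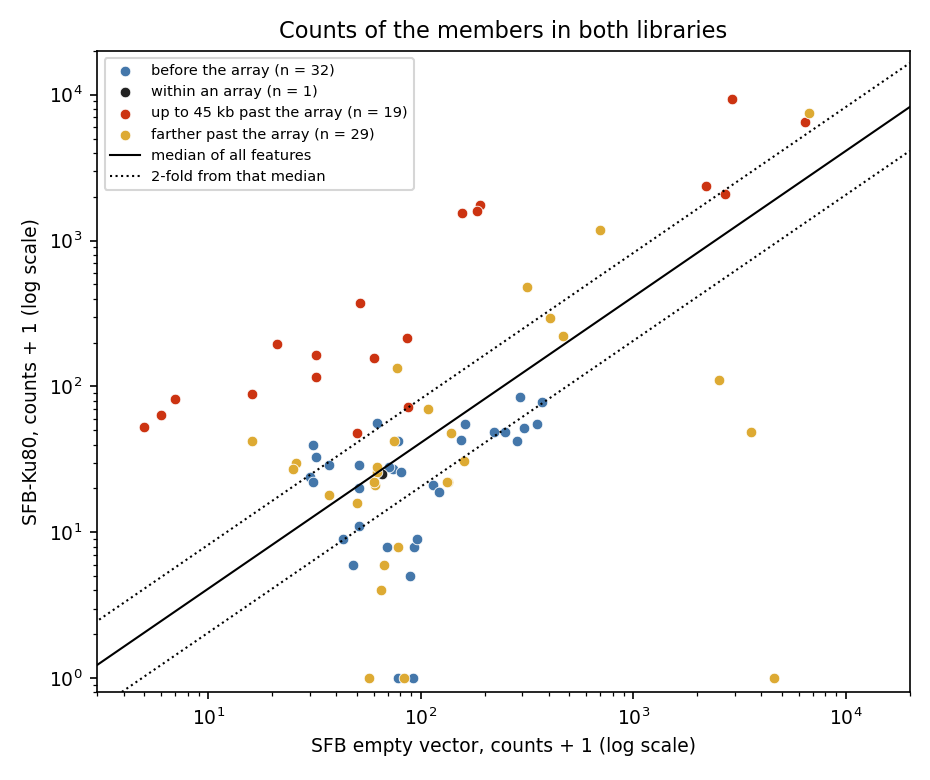
Counts of the 81 members in SFB empty vector (x axis) and SFB-Ku80 (y axis), each plus 1 and on log scales, coloured by place against the rDNA array. The solid line marks the median of all features and the dotted lines 2-fold above and below it. The members up to 45 kb past the array lie above the solid line, and 5 members lie at 0 counts of SFB-Ku80.

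**Figure D2:**
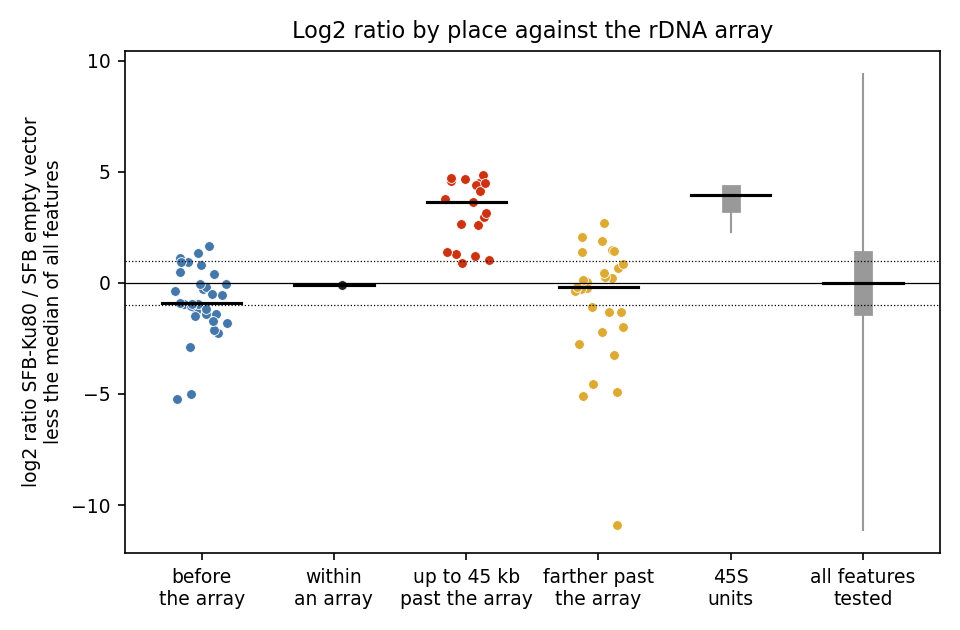
Log2 ratio of SFB-Ku80 to SFB empty vector, less the median of all features, for members before, within and past the array (points, with the median as a bar) and for the 192 45S units with at least 50 counts and all features tested (grey box for the middle quartiles, line for the range, bar for the median). The 19 members up to 45 kb past the array have a median of 3.64, beside 3.94 for the 45S units, and the 32 members before the array have a median of -0.92.

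The counted features next to the array on the proximal side, and their copies of few counts, came in the same order on all 5 chromosomes, from 30036 to 38238 bases past the last unit. A feature of 92 bases was followed by one of 90 bases, one of 93 bases, one of 180 or 183 bases and one of 61 bases, all on the plus strand. On chromosomes 13, 14, 15 and 22 a feature of 923 or 950 bases on the minus strand came next. The spacing was nearly fixed. The 180- or 183-base feature started 450 bases after the 93-base one on every chromosome, and the 61-base feature 371 or 374 bases after that. Features of 90 bases also occur before and within the arrays, where at all 9 places they ended 47 or 49 bases before the start of a 45S unit. Past the array no unit is annotated after it. If a unit started 49 bases after it there, the 93-base features would lie at bases 2034 to 2132 of that unit, the 180- and 183-base features at 2484 to 2669, and the 61-base features at 2855 to 2921. These bases carry the label 5′ETS in the authors' rDNA bins, that is, the external transcribed spacer at the front of the transcript, which is removed during rRNA maturation and does not reach the ribosome. The features of 923 and 950 bases would lie at 4371 to 5358, within the bins labelled 18S. The offsets come from the annotated positions alone, and no CHM13 sequence was compared.

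The 93-base features had the most counts of the short ones. On chromosome 13 (chr13:9343828-9343920, LOFF_G0000511) there were 156 counts in the vector library and 1533 in the Ku80 library. On chromosome 14 (chr14:2813626-2813718) there were 188 and 1750, and on chromosome 15 (chr15:4703235-4703327) 183 and 1595. Chromosomes 21 (chr21:5610525-5610617) and 22 (chr22:5716376-5716468) had fewer, with 51 and 372 and with 20 and 196. All 5 copies were thus higher in the Ku80 library, although they differed in level. Unique pairs lay only on the copies of chromosomes 14 (6 and 26) and 15 (4 and 9). The copies can share reads and are not 5 separate observations. Their raw count ratios ran from 7.29 to 9.83, and their log2 ratios relative to the median feature from 4.12 to 4.57. Summed over the chromosomes, 598 counts stood against 5446, a ratio of 9.11 (95% exact conditional interval 8.37 to 9.93).

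The 180- and 183-base features were higher in the Ku80 library as well, by a smaller factor in the sum over the chromosomes. The count was 31 in the vector library and 163 in the Ku80 library on chromosome 13 (chr13:9344278-9344457), and 85 and 213 on chromosome 14 (chr14:2814076-2814255). On chromosome 15 (chr15:4703685-4703867) it was 6 and 81, the highest log2 ratio of all members at 4.83 (3.85 to 6.52), on few counts. Chromosome 21 (chr21:5610975-5611157) had 31 and 116, and chromosome 22 (chr22:5716826-5717008) 59 and 156. The summed ratio was 3.44 (2.95 to 4.03), beside 9.11 (8.37 to 9.93) for the 93-base features. A read that fits several copies can enter a sum more than once. The distance between these intervals is therefore not a measure of a difference between the kinds. Single copies ran from 2.51 to 13.5, and the chromosome 15 copy lay above every 93-base ratio. In unique pairs these features had 17 in the vector library and 49 in the Ku80 library, against 10 and 35 for the 93-base ones.

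Of the 61-base features 3 passed the limit of 50 counts. They had 5 counts in the vector library and 63 in the Ku80 library on chromosome 14 (chr14:2814447-2814507), 15 and 88 on chromosome 21 (chr21:5611349-5611409), and 4 and 52 on chromosome 22 (chr22:5717200-5717260). The copies on chromosomes 13 and 15, which are not members, had 1 and 24 counts and 4 and 14 counts. Over all 5 copies the ratio was 8.31 (5.64 to 12.7). Members and other copies together, all 15 features of 61 to 183 bases after the 90-base feature had more counts in the Ku80 library, 6416 against 839, where 19.6% of all features with at least 50 counts had a higher raw count there. Of the 13 that were members, all 13 were higher under every scaling and pseudocount tried. Those with fewer than 50 vector counts passed the limit only with their Ku80 counts, which no scaling changes. Their high ratios are therefore a description.

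**Figure D3:**
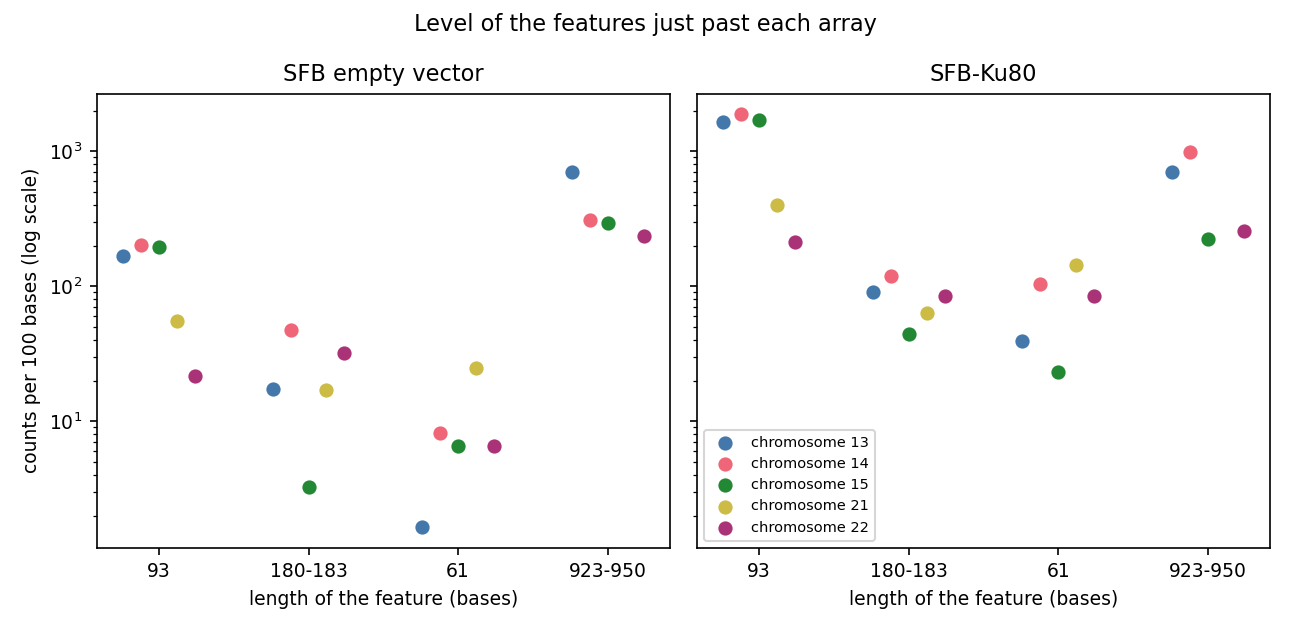
Counts per 100 bases of length (log scale) of the features of 93, 180 or 183, 61 and 923 or 950 bases past each array, by chromosome, in SFB empty vector (left) and SFB-Ku80 (right). The 61-base copies on chromosomes 13 and 15 are not members, and chromosome 21 has no feature of 923 or 950 bases here. The 93-base features of chromosomes 13, 14 and 15 lie between 168 and 202 counts per 100 bases on the left and between 1648 and 1882 on the right.

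Per length, the order of the copies differed between these features. The 93-base feature had 1648, 1882 and 1715 counts per 100 bases in the Ku80 library on chromosomes 13, 14 and 15 and 211 on chromosome 22, with chromosome 21 in between. The 61-base feature was highest on chromosome 21, at 144, and lowest on chromosome 15, at 23.0. No chromosome was thus highest for all of them. Since reads that fit several copies are counted at each place the aligner reported, these levels cannot be read as the output of a chromosome.

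The longer features of 923 and 950 bases held most of the counts but not the highest ratios. On chromosome 13 (chr13:9346159-9347081) there were 6438 counts in the vector library and 6513 in the Ku80 library, and on chromosome 15 (chr15:4705603-4706525) 2707 and 2074. Chromosome 22 (chr22:5718751-5719673) had 2190 and 2377. The raw counts of these 3 were close between the libraries, with ratios from 0.766 to 1.09, and they were 0.90 to 1.40 above the median feature on the log2 scale. The 950-base feature of chromosome 14 (chr14:2816001-2816950, LOFF_G0000655) differed from them, with 2914 counts in the vector library and 9329 in the Ku80 library, the most of any member, and a log2 ratio of 2.96 (2.90 to 3.02). In uniquely mapped pairs this feature had 57 and 49, a log2 ratio of 1.74 relative to the median feature in unique pairs. The chromosome 15 copy had 2 and 17 pairs there, a log2 ratio of 4.54, so that in unique pairs the order of these copies was the reverse of that in counts. With all counts as the scale, the chromosome 15 copy lay at -0.24, and 3 of the 4 features of this length stayed above 0.

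A further feature of nearly the same length, 914 bases, lies 3221040 bases past the array of chromosome 21 (chr21:8794151-8795064), also on the minus strand. It had 6720 counts in the vector library and 7461 in the Ku80 library, and a log2 ratio of 1.43 (1.38 to 1.48). It was the member with the most unique pairs, 795 and 928, and in those pairs its log2 ratio was 2.18. STAR also counted unique pairs per strand. Over all features, its second stranded column held 75.1% of the pairs assigned in either column in the vector library, and 67.6% in the Ku80 library. For the 45S units, on the plus strand, it was 77.2% and 74.0%. For the 914-base feature it was 20.03% and 15.3%, and for the 950-base feature of chromosome 14 17.5% of 57 pairs and 5.56% of 54. Most unique pairs of these features thus lay in the column that held the smaller part for all features. This was not so for the 923-base features, which had 75% of 4 pairs and 45.5% of 22 in the second column. The 93-base features, on the plus strand, had 70% of 10 pairs and 42.9% of 35 there.

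The authors' bin signal over the rDNA repeat counts the reads that BLAST placed on each stretch of 10 bases. It is another alignment of reads from the same libraries, taken here at the supposed offsets, and so no separate support for the counts. In raw signal, the bins at the offsets of the 93-base features had ratios of Ku80 to vector of 5.71 to 5.76, against a count ratio of 9.11. At the offsets of the 180- and 183-base features the bin ratio was 5.02, against 3.44 in counts. At those of the 61-base features it was 5.49 to 5.65, against 8.31. At those of the features of 923 and 950 bases it was 2.10 to 2.11, against a summed count ratio of 1.42. In the summed counts and in the bins the 3 short kinds were thus above the long kind. This did not hold for every copy. The 950-base feature of chromosome 14 had a count ratio of 3.20. The 180-base feature of chromosome 14 had 2.51 and the 183-base feature of chromosome 22 had 2.64. Over whole regions the raw signal ratio was 5.46 for the 5′ETS and 2.07 for 18S. The bins hold reads of every copy, the complete units included, so they do not measure the features past the array by themselves.

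**Figure D4:**
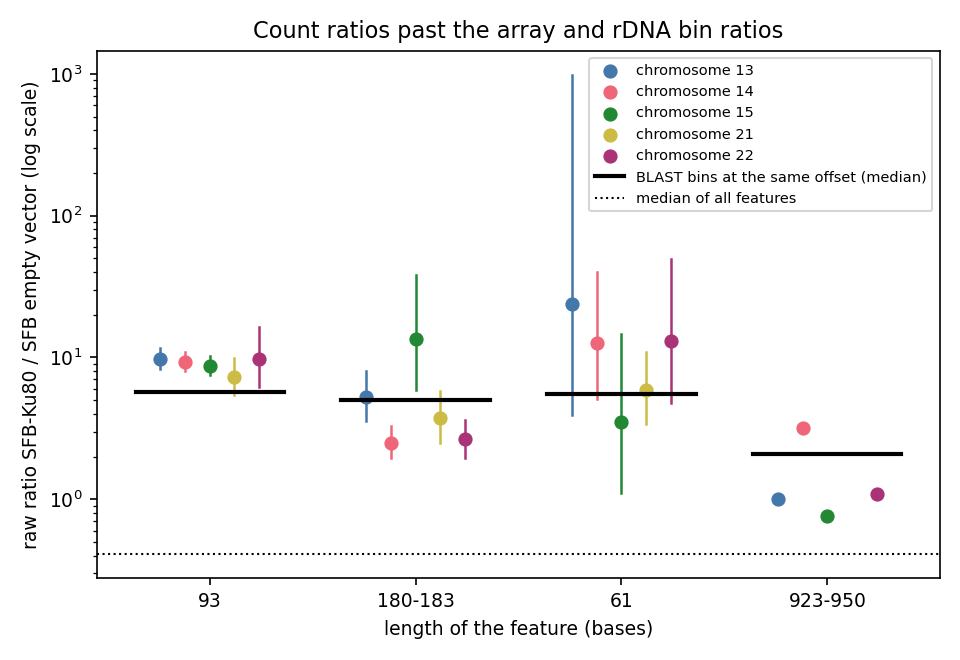
Raw ratio of SFB-Ku80 to SFB empty vector counts (log scale) for each feature past the array, by length and chromosome, with 95% exact conditional intervals for counting error. Black bars give the median ratio of the rDNA bin signal at the same offsets, and the dotted line the median count ratio of all features, 0.412. The 93-base features lie between 7.29 and 9.83, and the features of 923 and 950 bases between 0.766 and 3.20.

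The features of 90 and 92 bases mostly had few counts. Of the 28 before, within and just past the arrays, 2 were members. The 92-base feature past the array of chromosome 13 (chr13:9341096-9341187) had 86 counts in the vector library and 71 in the Ku80 library, a log2 ratio of 1.01 (0.53 to 1.47), and 15 and 38 unique pairs. With all counts as the scale it was -0.13. The 90-base feature past the array of chromosome 15 (chr15:4701061-4701150) had 49 and 47, a log2 ratio of 1.22 (0.61 to 1.83). The 26 others had at most 3 counts in the vector library and 6 in the Ku80 library. The only member inside an array was a feature of chromosome 21 (chr21:3129042-3130516), which starts 17007 bases from the start of the unit before it. It had 65 counts in the vector library and 24 in the Ku80 library, a log2 ratio of -0.12, within 2-fold of the median feature. In unique pairs it had 10 and 0, a log2 ratio of -1.50, which is lower. The rDNA bins at its offset, in the intergenic spacer, had a raw signal of 1442 and 326, a ratio of 0.226 beside the 0.369 of its counts.

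Farther past the array, 7 of 29 members (24.1%) were higher, close to the 26.1% of all features, while 11 (37.9%) were lower against 26.3%. Apart from the 914-base feature the 7 higher members included 5 of chromosome 14. A feature of 152 bases (chr14:7616799-7616950) had 697 counts in the vector library and 1185 in the Ku80 library, a log2 ratio of 2.05, and one of 151 bases (chr14:9677675-9677825) had 316 and 477, a ratio of 1.87. Both were also covered by unique pairs, with 56 and 102 and with 139 and 202, and had log2 ratios of 2.81 and 2.49 in them. A feature with 23 exons (chr14:6961841-7016527) had 76 and 133 counts, a log2 ratio of 2.08, and 22 unique pairs in each library. A feature with 4 exons (chr14:5879642-5881900), 845 bases long, had 15 and 41 counts and no unique pair. A feature of the same length and span on chromosome 21 (chr21:7677145-7679403) had 7 and 41 and missed the limit of 50 with a sum of 48. The log2 ratios of these features were 2.67 and 3.67. Just inside the limit lay chr14:1573569-1580929 with 42 and 8 counts and chr22:5825442-5825952 with 24 and 26, and just outside it chr13:5327741-5328821 with 30 and 18 and chr14:2953585-2954095 with 22 and 26.

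The distal side lay mostly below the median feature, with 8 of its 32 members above it, but 16 were within 2-fold of it. Of the 32 members, 13 (40.6%) were lower in the Ku80 library and 3 (9.38%) higher, beside 26.3% and 26.1% of all features. The nearest of them to the array were features of 456 and 457 bases with 2 exons on chromosomes 13 (chr13:5673561-5676012) and 14 (chr14:2002711-2005163), 98291 and 98365 bases before the first unit. They had 50 counts in the vector library and 28 in the Ku80 library, and 73 and 26, and their log2 ratios of 0.47 (-0.28 to 1.14) and -0.17 (-0.91 to 0.45) include 0. On chromosomes 15, 21 and 22 the nearest members lay 151007 to 152805 bases before the array. They had 248 and 48 counts (chr15:2356104-2359159), 113 and 20 (chr21:2928208-2959379) and 221 and 48 (chr22:4613425-4644825), with log2 ratios of -1.06, -1.16 and -0.90. All 3 had fewer counts in the Ku80 library, and their counting intervals lay below the median feature.

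The 3 distal members that were higher had few counts. They had 61 and 55 counts (chr13:5228510-5272591), 31 and 32 (chr14:635825-641085) and 30 and 39 (chr15:2092848-2101186), with log2 ratios of 1.13, 1.33 and 1.65.

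Many distal members had copies on other chromosomes. Members whose length and span both agree within 1% on 2 or more of the chromosomes formed 16 copy families with 49 members. A feature with 9 exons and 1693 to 1697 bases had 4 distal copies and 1 proximal one. The 4 distal copies had 92 and 7 counts on chromosome 13, 95 and 8 on chromosome 14, 88 and 4 on chromosome 15, and 68 and 7 on chromosome 21. They were lower by log2 ratios from -2.87 to -1.83. The proximal copy on chromosome 21 (chr21:7557392-7581109) had 36 and 17 and a log2 ratio of 0.24, above the 4 distal copies. A feature with 22 exons and 1901 bases on chromosomes 13, 15, 21 and 22 had 61 to 80 counts in the vector library and 25 to 55 in the Ku80 library, with log2 ratios from -0.36 to 1.13. The single-exon copies of 758 and 759 bases on chromosomes 13, 14 and 15 had 29 to 50 and 19 to 23 counts, with log2 ratios from -0.07 to 0.96. Both of these families were within 2-fold of the median feature, except for the chromosome 13 copy of the former at 1.13.

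On the proximal side a 204-base feature occurred on all 5 chromosomes, 138463 to 168494 bases past the array. It had 59 to 138 counts in the vector library and 20 to 47 in the Ku80 library, and its log2 ratios ran from -0.26 to 0.13. All 5 copies thus lay within 2-fold of the median feature. Unique pairs, 5 and 2, lay only on the chromosome 14 copy, and the copies are not separate observations. The 15 members of up to 250 bases within 45 kb past the array were higher in all 15 cases, with a median of 4.12, whereas the 7 elsewhere had a median of 0.03, with 2 higher. Some of the 15 passed the limit of 50 only with their Ku80 counts. Over the 462 features of the whole table with that length and at least 50 counts, the median was 0.13 and 33.1% were higher.

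The members with the lowest ratios were counted almost only in the vector library. At 0 counts of the Ku80 library lay 5 members, and none lay at 0 in the vector library. Of all features with at least 50 counts, 0.335% were at 0 in the Ku80 library and 0.014% in the vector library. A member at 0 in the Ku80 library passed the limit of 50 through its vector count alone, so these values are a description. The one with the most counts was a feature with 9 exons on chromosome 22 (chr22:6244131-6292336, LOFF_G0001799), with 4616 counts in the vector library, which against a floor of 3 counts in the Ku80 library is at least 633-fold lower than the median feature. The exact conditional interval used for the other members is wider than this floor and reaches a log2 ratio of -9.01. Its neighbour 2945 bases before it (chr22:6239100-6241185) had 82 counts, at least 11.2-fold lower. The copies of a 262-base distal feature on chromosomes 21 (chr21:2602820-2603081) and 22 (chr22:4341825-4342086) had 77 and 91 counts, at least 10.6-fold and 12.5-fold lower. A feature of chromosome 14 (chr14:4363211-4365320) had 56, at least 7.68-fold lower, with an interval up to a log2 ratio of -2.60. These 5 had 3 unique pairs in the vector library in all, so nearly all of their counts were of reads that also mapped elsewhere.

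Low ratios with a few counts left were seen in the single-exon features of 1710 to 1712 bases on chromosomes 14, 21 and 22, 1021123 to 1828107 bases past the array. They had 64 to 77 counts in the vector library and 3 to 7 in the Ku80 library, with a median log2 ratio of -2.20 and no unique pair.

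Another 2 members had over 1000 counts in the vector library and 109 or fewer in the Ku80 library. A feature with 10 exons on chromosome 21 (chr21:5692612-5754003, CHM13_G0035629), 119501 bases past the array, had 3596 and 48, a log2 ratio of -4.92 (-5.39 to -4.54). The other 10-exon features of 2308 to 2310 bases had far fewer counts in the vector library. They had 107 and 69 counts on chromosome 14, 133 and 21 on chromosome 13, and 132 and 21 on chromosome 15. In unique pairs the chromosome 21 copy had 14 and 2, a log2 ratio of -0.37, within 2-fold of the median feature. A feature with 2 exons near the limit of the window (chr21:9735643-9742404) had 2520 and 109 counts and a log2 ratio of -3.24, but 157 and 58 unique pairs and 0.53 in those. For both, the low value was seen in counts with multimapping reads and not in unique pairs. For the 10-exon feature the latter were only 14 and 2, too few to settle its ratio.

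In uniquely mapped pairs 25 of the 81 members had at least 10 pairs over both libraries, and 34 had none. Of the 25, 13 were higher against 26.8% of all features with that many pairs, and 4 were lower against 23.4%. The sign relative to the median feature was the same as in counts for 22 of them. All 8 of these 25 that lie up to 45 kb past the array were higher, by 1.74 to 4.54. Those with fewer than 10 vector pairs reached the limit of 10 only with their Ku80 pairs, so these values are a description. The 93-base feature of chromosome 14 had 6 pairs in the vector library and 26 in the Ku80 library, a log2 ratio of 3.90, and the 183-base feature of chromosome 21 had 9 and 23, or 3.22. A distal feature of chromosome 13 (chr13:5515335-5526653), which had 350 and 54 counts, had 129 and 15 pairs and was lower in both, by -1.39 and -1.07. The share of the assigned unique pairs on all members was 0.0280% in the vector library and 0.111% in the Ku80 library, a ratio of 3.97 where counts gave 1.05.

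**Figure D5:**
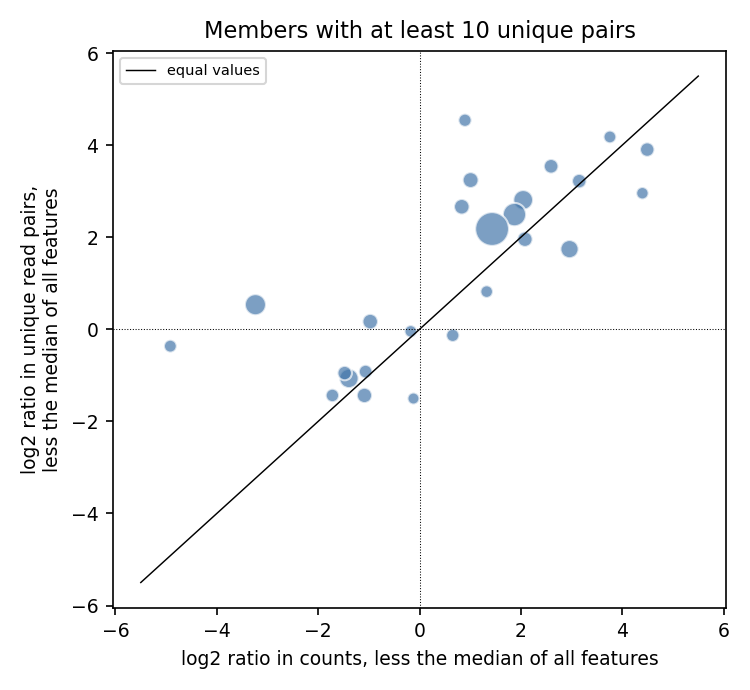
Log2 ratio of SFB-Ku80 to SFB empty vector in counts (x axis) and in uniquely mapped read pairs (y axis), each less its own median of all features, for the 25 members with at least 10 unique pairs. Point area grows with the number of pairs and the line marks equal values. Of the 25 members, 22 have the same sign in both, and the 2 members of chromosome 21 at -4.92 and -3.24 in counts lie at -0.37 and 0.53 in unique pairs.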

How the data were processed

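The authors aligned read pairs with STAR to T2T-CHM13 and deposited raw counts per feature from featureCounts (versions 2.7.6a and 2.0.2 in the submitters' processing notes) with the CHM13 v1.1 annotation. Per the file headers, pairs needed both ends mapped and a fragment length of at least 18, multimapping reads were counted and strand was not used. The authors also deposited STAR's counts of uniquely mapped pairs, unstranded and per strand, whose 4 rows of unassigned totals were left out here, and a signal of BLAST-aligned reads in bins of 10 bases along the rDNA repeat, with no scaling for depth. The BLAST limits are not given in the sources used here. STAR saw 29863974 read pairs of SFB empty vector and assigned 6062669, and 22173753 and 1443251 of SFB-Ku80.

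Log2 ratios used a pseudocount of 1 and were centred on the median of the 21499 features with at least 50 counts. Unique pairs were centred on features with at least 10 pairs. Intervals are exact binomial, Poisson or conditional binomial ones at 95%. With 1 library per condition no test was made. The calculation was first tested on simulated data. Python 3.11.15, scipy 1.17.1 and edgeR 4.0.16 (TMM alternative only) were used. Names were not paired with IDs, so members are called by position. The members named are the 5 with the most counts in each library, the 5 highest and 5 lowest ratios, the nearest to the array on each side and those at the limit of 50. Others, among them the features past the array, the copies, the members within an array and those with unique pairs, were chosen after their values were seen. The members and groupings were chosen with earlier results of these data known.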

Additional observations from a re-analysis of the deposited data

How the results depend on the processing

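No paired analysis was possible because there is 1 library of either kind. STAR's unique pairs left 25, 12 and 21 members with at least 10 pairs (unstranded, first and second stranded column). The higher members were then 13, 9 and 11, the lower 4, 2 and 1, and the medians 1.74, 1.97 and 1.01. Of all features with at least 10 unstranded pairs, 26.8% were higher and 23.4% lower. No such share is given for the stranded columns, so their counts are not read as a trait of the members. The proximal median was 2.66 unstranded and 2.88 in the second column, and the member within an array was at -1.50 unstranded. The ratio of the shares was 3.97, 3.75 and 3.53. Scaling by all counts gave 15 higher, 42 lower, a median of -1.11, distal and within values of -2.05 and -1.26 and a proximal median of -0.0216, which changed sign, as did the 92-base feature past the array of chromosome 13, to -0.13. Scaling by counts outside the 45S units gave 17 higher, 37 lower, a median of -0.85, and distal and within values of -1.79 and -0.997. Under these scalings the median of all features itself was -1.14 and -0.88, which accounts for the shift. The chromosome 21 feature with 3596 and 48 counts changed sign to 0.23 in the second stranded column.

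A limit of 100 counts gave 11 lower and a ratio of shares of 1.08, a limit of 20 gave 46 lower and 1.04, and a limit of 1 gave 98 higher, 82 lower, 1.03 and a within value of 1.73, over more or fewer features. A window of 5000000 bases gave 9 higher, 14 lower and a ratio of 1.77, where 26.1% and 26.3% of all features were higher and lower. A 4-fold limit gave 17 higher and 13 lower. No share of all features is given for the 4-fold limit or for the limits of 100, 20 and 1. Those counts are therefore not read as a trait of the members. The ratio of shares was 1.26 for counts outside the 45S units and 0.776, reversed, without the top member of each library. Chosen after seeing the data, 1 sum per copy family gave 16 higher of 48, and leaving out the features up to 45 kb past the array gave 10 higher and a median of -0.36. TMM and median-of-ratios scaling and the pseudocounts of 0.5 and 5 moved none of the counts by over 1.5 times, and leaving out features that overlap a unit removed none. Where no construction of the setting shows the cause, the cause was not tested.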

Other observations

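The features between the last unit and the 92-base feature past each array, 20 in all and 234 to 479 bases long, had 10 vector counts and 0 Ku80 counts, with at most 6 for any of them. The 27 features inside the arrays but outside the units that were not members had at most 8 counts over both libraries. These values lie beside 573107 vector counts and 3380416 Ku80 counts on the 45S units of the same arrays.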
